A study of Mus musculus with 4 samples.

Results

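Expression of 9 transcription factor genes that shape the macrophage lineage was read from RNA sequencing of tumor-associated macrophages (TAMs). The genes were *Spi1*, *Cebpa*, *Cebpb*, *Irf4*, *Irf8*, *Maf*, *Klf4*, *Runx1* and *Pparg*, taken by symbol from the 54532 Ensembl genes of the deposited count table, and all 9 had counts in every library. TAMs came from tumors of NB9464, a murine neuroblastoma line with amplified *MYCN*, collected 40 days after implantation in mice of the C57BL/6 background that were a few weeks old. Both groups came from a cross of mice with floxed *Syk*, a tyrosine kinase gene, and mice in which the lysozyme M gene (*Lyz2*) drives Cre recombinase, a driver that is active in myeloid cells including neutrophils and monocytes as well as macrophages. The 2 libraries labelled SYK WT (M7 and M8) carry the label of the wild type control (Syk MC-WT). The 2 labelled SYK KO (M9 and M10) carry that of the myeloid knockout (Syk MC-KO), and no treatment is labelled for either group. The name of the deposited counts refers to a confirmation of adoptive transfer. In the paper's transfer experiment, TAMs of either genotype were mixed with NB9464 cells and injected into mice of either genotype. That name alone does not tell whether these libraries came from that experiment. The labels give no exact age, do not say whether the libraries of a genotype came from separate mice, and name magnetic beads against CD11b and F4/80 for TAM isolation but bone marrow derived macrophages as the source of RNA in the next line. P-values therefore measure only the spread between these libraries, which may be technical.

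Macrophages are built from progenitors by a small set of factors that open enhancers together. PU.1, the ETS protein encoded by *Spi1*, binds with C/EBP proteins, RUNX1 and IRF8 at the enhancers of myeloid genes, and KLF4 acts in the step from progenitor to monocyte. In mature macrophages, C/EBP beta, IRF4, c-MAF and PPAR gamma take part in the programs that follow cytokines, lipids and tissue signals.

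Before the lineage factors, the libraries themselves need a description. Total counts ran from 20755886 to 23518045, and mitochondrial genes took from 2.20% of them in M7 to 15.9% in M10. *Syk* had levels of 27.9, 23.2, 196 and 160 in M7 to M10 (CPM, per-million counts after TMM normalization in edgeR). It was thus higher where a knockout is labelled (log2 fold change 2.80, edgeR adjusted p = 0.000674), and every direction below refers to what a library is labelled. Gene totals cannot show whether the floxed exons themselves were lost. *Lyz2*, whose locus drives Cre, went the other way, at 296, 208, 8.64 and 20.2 CPM (log2 fold change -4.13, edgeR adjusted p = 0.00156). All 10 macrophage markers were detected in every library and higher in those labelled SYK KO, with a summed level of 915 to 1305 CPM against 6346 to 10398 CPM, while 6 of 8 fibroblast markers were lower (14910 to 16689 against 4744 to 5798 CPM). Summed per kilobase of exon, fibroblast markers exceeded macrophage markers 2.94-fold in M7 and 4.67-fold in M8, and were 0.108 and 0.218 of them in M9 and M10. Of 6 tumor cell markers, *Th* and *Dbh* had 0 counts in all libraries, *Phox2a* and *Chga* were low, and *Hand2* measured 178 to 301 CPM without passing the test. In such bulk samples, fewer cells of a type and less RNA per cell cannot be told apart. The summed levels of macrophage and fibroblast markers followed the genotype labels.

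Of the 9 lineage factors, 7 were higher in the libraries labelled SYK KO and 0 were lower (edgeR's quasi-likelihood test, adjusted p under 0.05 over 16451 genes), beside 22.7% of all genes tested that were higher and 16.7% that were lower. The DESeq2 Wald test gave the same 7 and 0 (19.5% and 15.9% of all genes), and 0 were lower at an unadjusted p under 0.05 by either tool. *Irf4*, *Spi1*, *Cebpa*, *Irf8* and *Pparg* had the largest changes, with log2 fold changes from 2.94 to 4.12. *Maf* and *Cebpb* rose by less, 1.84 and 1.75. *Klf4* and *Runx1* had log2 fold changes of 0.01 and 0.05 and did not pass the test. The median over the 9 genes was 2.94, against 0.02 over all genes tested and 2.82 over the 10 macrophage markers, which ran from 0.57 to 3.57. For the 7 genes that rose, neither library labelled SYK KO overlapped those labelled SYK WT, as was true in that direction of 38.0% of all genes tested (37.2% in the other). DESeq2 size factors and library size alone also gave 7 higher and 0 lower. Of all 16451 genes, 3466 and 1677 were then higher and 2863 and 5411 lower, respectively. With the libraries scaled to the macrophage markers, 0 of the 9 genes were higher and 2 were lower. That scaling lowered the median of all genes to -2.72 and left 0.808% of them higher and 86.5% lower. Values are under TMM scaling where no other is named.

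**Figure D1:**
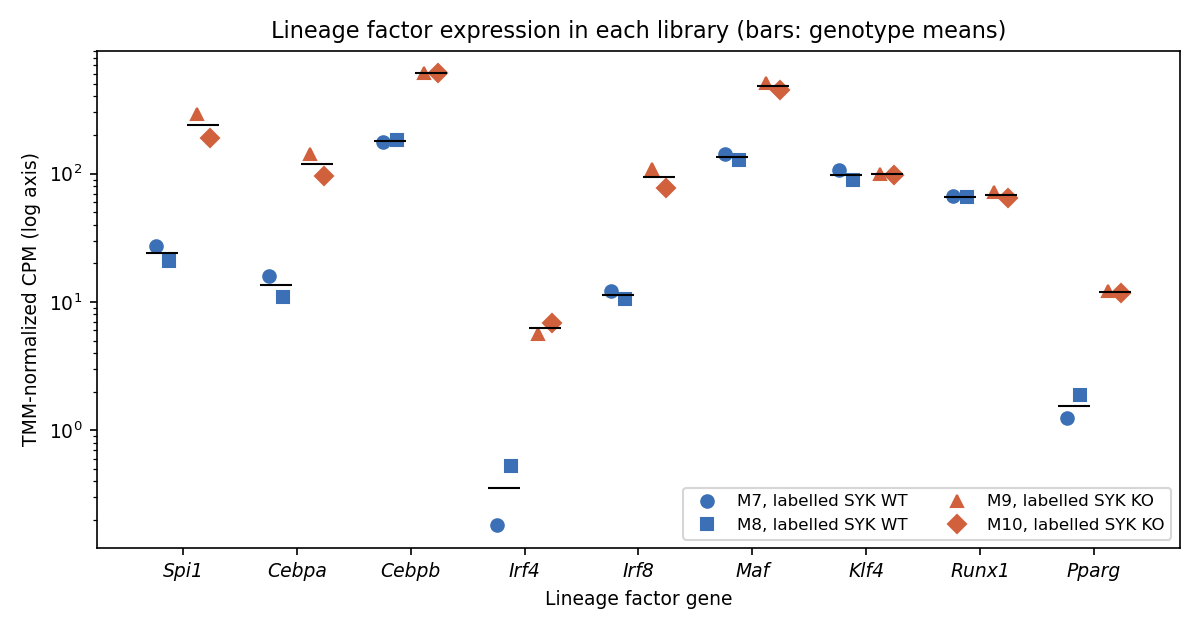
TMM-normalized CPM (log axis) of the 9 lineage factors in each library, blue for libraries labelled SYK WT and orange for those labelled SYK KO, with a bar at each genotype mean. *Spi1* lies at 20.8 to 27.1 CPM in blue and 188 to 291 CPM in orange, whereas the 4 points of *Klf4* lie between 89.2 and 107 CPM and those of *Runx1* between 64.8 and 71.9 CPM.

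Sequences before the start sites of 4 genes are shown to set genes that rose beside genes that did not: *Irf4* with the largest change, *Pparg* with the median change and the only C/EBP matches, and *Klf4* and *Runx1*, which did not pass the test. RefSeq promoters (GRCm38.p6) were matched for 7 of the 9 genes, with 11 start sites, and the 250 bases before each start were searched on both strands. The motifs were GAGGAA (ETS, the family of PU.1), TTGCNNAA (C/EBP), GAAA repeated after 2 bases of any kind (IRF), GGAA followed after 2 such bases by GAAA (ETS-IRF composite, which can overlap the IRF motif), TGCTGAC (MAF), CCACCC (KLF), TGTGGT (RUNX) and AGGTCA repeated after 1 base of any kind (PPAR-RXR). Each is given 5′ to 3′ in the direction of transcription, in lower case with motif matches in capitals.
*Irf4*, chr13:30748983-30749232, + strand: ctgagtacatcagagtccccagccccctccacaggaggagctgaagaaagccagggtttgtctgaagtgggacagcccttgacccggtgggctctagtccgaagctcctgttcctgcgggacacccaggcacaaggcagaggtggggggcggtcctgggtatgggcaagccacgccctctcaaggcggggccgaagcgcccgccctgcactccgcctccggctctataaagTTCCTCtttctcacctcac
*Pparg*, the start farthest downstream, chr6:115421816-115422065, + strand: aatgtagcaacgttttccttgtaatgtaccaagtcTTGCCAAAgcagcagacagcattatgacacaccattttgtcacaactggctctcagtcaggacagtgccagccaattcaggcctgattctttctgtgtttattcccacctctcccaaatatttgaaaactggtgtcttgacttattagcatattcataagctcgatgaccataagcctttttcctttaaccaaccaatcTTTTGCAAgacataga
*Runx1*, the downstream start, chr16:92697330-92697579, - strand: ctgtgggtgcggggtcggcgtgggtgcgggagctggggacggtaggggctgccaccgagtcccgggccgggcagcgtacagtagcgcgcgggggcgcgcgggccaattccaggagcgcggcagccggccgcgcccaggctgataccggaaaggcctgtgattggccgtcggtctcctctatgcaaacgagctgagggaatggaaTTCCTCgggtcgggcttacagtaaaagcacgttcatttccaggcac
*Klf4*, chr4:55532476-55532725, - strand: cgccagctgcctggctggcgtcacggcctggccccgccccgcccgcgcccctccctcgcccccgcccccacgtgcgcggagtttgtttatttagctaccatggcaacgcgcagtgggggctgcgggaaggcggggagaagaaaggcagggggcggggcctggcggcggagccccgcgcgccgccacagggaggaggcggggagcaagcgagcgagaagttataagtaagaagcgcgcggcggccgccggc
The *Irf4* window held a reverse ETS match that began 19 bases before the start, and the *Runx1* window a reverse ETS match 46 bases before it. The *Pparg* window held C/EBP matches 215 and 16 bases before the start, and the *Klf4* window held no match. The windows of the upstream *Pparg* starts, not shown, held a KLF match and an ETS match, and that of the upstream *Runx1* start held none. Over the 11 starts, 3 held the ETS letters (27.3%, against 23.3% of 32851 promoters of all genes), 1 held the C/EBP letters (9.09% against 9.56%) and 3 the KLF letters (27.3% against 28.1%), so these shares were near the background. The IRF, ETS-IRF, MAF, RUNX and PPAR-RXR letters were found in 0 of the 11 windows, beside 2.98%, 2.30%, 3.81%, 14% and 0.0335% of all promoters. Counts per gene do not separate transcripts that begin at different starts.

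*Spi1* (ENSMUSG00000002111, chromosome 2 of GRCm38, 91082390 to 91115756) encodes PU.1, without which macrophages and B cells do not form. Its 743, 510, 5994 and 3453 counts in M7 to M10 gave 27.1, 20.8, 291 and 188 CPM. Both libraries labelled SYK KO lay far above both labelled SYK WT, and M9 was 1.55 times M10. The mean rose from 23.9 ± 4.48 CPM to 240 ± 72.7 CPM (SD, n = 2 per genotype), a log2 fold change of 3.32 (standard error 0.277, edgeR adjusted p = 0.000898). Among the textbook targets of PU.1, 7 of 7 rose, including *Csf1r*, the receptor for the macrophage growth factor CSF1 (log2 fold change 2.61, edgeR adjusted p = 0.00167), *Itgam*, which encodes the CD11b chain used in the bead isolation (3.44, edgeR adjusted p = 0.00161), and *Btk*, a kinase of B cells and myeloid cells (3.38, edgeR adjusted p = 0.000729). Scaling the libraries to 6 pan-leukocyte genes lowered the median of all genes tested to -3.47 and left 92.1% of them lower. Under that scaling *Csf1r*, *Csf2ra* and *Tlr4* were lower too (-0.88, -1.14 and -1.74), though above that median, and the other PU.1 targets did not pass the test. Later values under either marker scaling are to be read against its median of all genes (-2.72 for the macrophage markers).

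*Cebpa* (ENSMUSG00000034957, chromosome 7, 35119293 to 35121928) encodes C/EBP alpha, which commits progenitors to the myeloid lineage. Its levels were 16.0, 11.0, 143 and 96.0 CPM in M7 to M10, again with no overlap and with M9 above M10. The log2 fold change was 3.14 (standard error 0.283, edgeR adjusted p = 0.00103). *Cebpb* (ENSMUSG00000056501, chromosome 2, 167688915 to 167690418), a relative that responds to cytokines and inflammation and is made by many cell types, had the highest level of the 9 genes per kilobase of exon in every library. At 175 and 183 CPM in the libraries labelled SYK WT and 603 and 605 CPM in the others, its libraries lay closer together within each genotype than those of *Cebpa*. Its log2 fold change was 1.75 (standard error 0.174, edgeR adjusted p = 0.00136). There were 0.0915 and 0.0602 *Cebpa* counts per *Cebpb* count in M7 and M8 and 0.237 and 0.159 in M9 and M10. A protein-coding gene on the opposite strand, *Tmem189*, shares 312 exonic bases with *Cebpb* and reached 2449, 2027, 6173 and 3808 counts. Without stated strand information reads from the shared bases cannot be told apart.

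The other C/EBP genes were less uniform. *Cebpd*, an early cytokine response factor, rose under TMM scaling (log2 fold change 1.62, edgeR adjusted p = 0.00262) but was lower when scaled to the macrophage markers (-1.17) or the pan-leukocyte genes (-1.91). *Cebpe*, a factor of granulocyte maturation with 0, 2, 32 and 28 counts in M7 to M10, rose too (edgeR adjusted p = 0.0126). *Cebpg* and the stress factor *Ddit3* had log2 fold changes of 0.50 and 0.52 that did not pass the test (edgeR adjusted p = 0.0746 and 0.103). Of 4 C/EBP alpha targets, *Csf3r* and *Cebpe* were tested and both rose (*Csf3r* was lower, -0.88, when scaled to the pan-leukocyte genes), while *Elane*, with 0, 2, 0 and 16 counts, and *Mpo*, with 0, 0, 1 and 48 counts, were below the expression filter and had their counts almost entirely in M10. Beside this, all 5 neutrophil markers tested of 6 also rose, with a summed level of 24.6 to 39.3 against 201 to 407 CPM, and their part in these values was not tested. Of the 6 targets listed for C/EBP beta, 4 of 5 tested rose, and *Arg1*, the arginine-degrading enzyme, measured 99.1, 77.3, 1836 and 926 CPM in M7 to M10 (log2 fold change 3.97, edgeR adjusted p = 0.00132).

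*Irf8* (ENSMUSG00000041515, chromosome 8, 120736358 to 120756694) encodes a factor that directs progenitors to monocytes and dendritic cells rather than granulocytes. Its levels were 12.1, 10.5, 109 and 77.8 CPM in M7 to M10, with no overlap between genotypes, and its log2 fold change of 3.04 had the smallest adjusted p of the 9 genes (standard error 0.224, edgeR adjusted p = 0.000729). *Irf4* (ENSMUSG00000021356, chromosome 13, 30749226 to 30766976), its closest relative, acts in alternatively activated macrophages, dendritic cells, plasma cells and T cells and was the least abundant of the 9 genes per kilobase of exon. Its counts were 5 and 13 in M7 and M8 and 116 and 125 in M9 and M10, with no overlap (0.182, 0.529, 5.63 and 6.81 CPM). The low counts in M7 and M8 left its change the least precise, with a log2 fold change of 4.12 (standard error 0.611, edgeR adjusted p = 0.00418) that was 3.54 without M7 and 5.04 without M8. Per *Irf8* count, the libraries held 0.0151, 0.0502, 0.0517 and 0.0875 *Irf4* counts in M7 to M10, so M8 and M9 were nearly level and the difference between genotypes came mainly from M7 and M10.

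Markers of the other cells that use *Irf4* moved in the same direction. All 5 T cell markers rose (summed level 0.610 to 0.911 against 6.94 to 8.83 CPM), as did both plasma cell markers tested of 4 (0.766 to 1.02 against 4.69 to 5.39 CPM) and 4 of 6 dendritic cell markers tested of 7 (12.3 to 14.3 against 61.2 to 67.8 CPM). Of 3 B cell markers tested of 4, 0 passed the test by edgeR, by DESeq2 or at an unadjusted p under 0.05 (1.34 to 1.35 against 2.14 to 4.36 CPM). The part of these cells in the rise of *Irf4* was not tested. All 4 genes listed as IRF4 targets rose, and *Ccl17*, a chemokine of alternatively activated macrophages and dendritic cells, had the largest change of all 30 target genes tested, from 0.620 and 0.610 CPM to 58.9 and 31.1 CPM (log2 fold change 6.18, edgeR adjusted p = 0.000674). *Retnla*, a secreted marker of the IL-4 response, rose from 12.5 and 6.39 CPM to 384 and 159 CPM (log2 fold change 4.84, edgeR adjusted p = 0.0018). *Ccl17* and *Retnla* were also higher when the libraries were scaled to the macrophage markers (3.36 and 2.06) or to the pan-leukocyte genes (2.62 and 1.30).

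Within the IRF family as a whole, 3 of the 7 genes other than *Irf4* and *Irf8* rose and 0 fell under TMM scaling. *Irf5*, which promotes inflammatory cytokines in macrophages, changed like *Irf8*, at 17.7, 12.7, 151 and 93.3 CPM (log2 fold change 3.01, edgeR adjusted p = 0.00135), and *Irf8* counts per *Irf5* count were 0.683, 0.833, 0.722 and 0.834 in M7 to M10. *Irf2* and *Irf7* rose by 0.72 and 1.30 under TMM scaling but were lower when scaled to the macrophage markers (-1.99 and -1.46), whereas *Irf1*, *Irf3* and *Irf9* did not pass the test, with log2 fold changes of 0.17, -0.38 and 0.31. Of the IRF8 targets, *Ctsc* and *Cst3*, a lysosomal protease and a protease inhibitor, rose by 3.63 and 1.91 (edgeR adjusted p = 0.00143 and 0.00159), *Bcl6* did not pass the test (0.03, edgeR adjusted p = 0.894), and *Il12b*, with 3, 0, 4 and 3 counts, was not tested. *Cst3* was lower when scaled to the pan-leukocyte genes (-1.60).

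*Maf* (ENSMUSG00000055435, chromosome 8, 115682942 to 115707794) encodes c-MAF, a bZIP factor that drives *Il10* in macrophages. It is also expressed outside the macrophage lineage. Its levels of 142, 127, 508 and 451 CPM in M7 to M10 did not overlap between genotypes, and the log2 fold change was 1.84 (standard error 0.181, edgeR adjusted p = 0.00134). *Mafg*, a small MAF protein without an activation domain, was lower (-0.88, edgeR adjusted p = 0.0103). *Il10*, the cytokine target, rose from 1.82 and 0.692 CPM to 15.4 and 7.30 CPM (log2 fold change 3.16, edgeR adjusted p = 0.00915). *Maf* and *Cebpb* moved together closely, with 0.811, 0.692, 0.842 and 0.747 *Maf* counts per *Cebpb* count in M7 to M10.

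*Pparg* (ENSMUSG00000000440, chromosome 6, 115360951 to 115490399) encodes the lipid-activated nuclear receptor PPAR gamma, known from alveolar macrophages, alternative activation and fat cells. It had 34 and 46 counts in M7 and M8 and 249 and 216 in M9 and M10, or 1.24, 1.87, 12.1 and 11.8 CPM, low but separated by genotype. The log2 fold change was 2.94 (standard error 0.354, edgeR adjusted p = 0.00218). Of 6 adipocyte markers 2 were tested and 1 was lower: their summed level was 3.66 to 9.84 CPM in the libraries labelled SYK WT and 0.777 to 1.31 CPM in those labelled SYK KO, where *Adipoq* and *Lep* had 0 counts. The part of fat cells in the level of *Pparg* was not tested. Its targets in lipid uptake and storage were mostly higher, with 5 of 6 tested passing the test, among them *Lpl*, the lipoprotein lipase (log2 fold change 3.72), *Cd36*, a fatty acid and lipoprotein receptor (3.20), *Plin2*, a lipid droplet protein (2.64), and *Fabp4*, a fatty acid carrier (1.37). With the libraries scaled to the macrophage markers *Fabp4* was lower (-1.38) and *Lpl* higher (1.10). Scaled to the pan-leukocyte genes, *Fabp4* and *Plin2* were lower (-2.13 and -0.92) and *Lpl* did not pass the test (0.31). Of its partner and sister receptors under TMM scaling, *Rxra*, the partner with which it binds DNA, and *Nr1h3*, the oxysterol receptor LXR alpha, rose by 1.21 and 2.43, *Rxrb* fell by 0.51 on the log2 scale, and *Ppard*, *Rxrg* and *Nr1h2* did not pass the test. *Rxra* was lower when scaled to the macrophage markers (-1.54), and *Nr1h3* when scaled to the pan-leukocyte genes (-1.01).

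*Klf4* (ENSMUSG00000003032, chromosome 4, 55527143 to 55532466), a zinc finger factor of monocytes that is also expressed in endothelium, epithelium and other stroma, stood apart from the genes above. Its levels were 107, 89.2, 100.2 and 97.2 CPM in M7 to M10, and the genotypes overlapped. The log2 fold change was 0.01 (standard error 0.163, edgeR adjusted p = 0.981), with a 95% interval from 0.765-fold to 1.32-fold. *Runx1* (ENSMUSG00000022952, chromosome 16, 92601466 to 92826149), required for the first blood stem cells and active at the *Spi1* and *Csf1r* enhancers, behaved likewise, at 66.5, 65.3, 71.9 and 64.8 CPM. Its log2 fold change was 0.05 (standard error 0.149, edgeR adjusted p = 0.801), with a 95% interval from 0.809-fold to 1.33-fold. These intervals exclude a rise of the size seen for *Cebpb*, the smallest among the 7 genes that rose, whose own interval began at 2.52-fold. Per count of *Runx1* there were 1.62, 1.37, 1.39 and 1.499 counts of *Klf4* in M7 to M10, so the pair kept nearly the same ratio in all 4 libraries.

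Endothelial and fibroblast markers were lower where *Klf4* and *Runx1* were level under TMM scaling. Of 8 endothelial markers 3 were lower, with a summed level of 201 to 206 CPM in M7 and M8 and 141 to 151 CPM in M9 and M10, whereas all 3 monocyte markers rose, from 9.88 and 12.04 CPM to 199.7 and 154 CPM. The part of these cells in the level of *Klf4* was not tested. The relatives of *Runx1* were split: *Runx2*, the factor of bone and mesenchymal cells, fell from 160 and 153 CPM to 70.0 and 61.5 CPM (log2 fold change -1.25, edgeR adjusted p = 0.0025), while *Runx3*, a factor of T cells, NK cells and some myeloid cells, rose from 8.35 and 6.31 CPM to 69.0 and 40.4 CPM (log2 fold change 2.90, edgeR adjusted p = 0.00161). *Cbfb*, which encodes the subunit that all RUNX proteins share, did not pass the test (0.04, edgeR adjusted p = 0.878). Among KLF genes, *Klf2*, a factor of quiescent endothelium and leukocytes, and *Klf13* rose under TMM scaling (1.06 and 0.64) but were lower when scaled to the macrophage markers (-1.60 and -2.10), whereas *Klf5*, *Klf7* and *Klf9* were lower (-2.69, -0.76 and -0.82). All 4 genes listed as KLF4 targets rose, with *Cd14*, the co-receptor for bacterial lipopolysaccharide, at 66.4, 43.7, 753 and 482 CPM (log2 fold change 3.49, edgeR adjusted p = 0.00115). The others were *Arg1* and *Retnla*, also listed for C/EBP beta and IRF4, and *Mrc1*, which like *Cd14* is a macrophage marker. *Mrc1* was lower when scaled to the pan-leukocyte genes (-0.83). Of the *Runx1* targets, *Csf1r* was tested, and *Csf2*, *Mpo* and *Gfi1* were below the filter.

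Ratios of counts within a library do not depend on how libraries are scaled, so each factor was also set against *Spi1*. *Cebpa* kept the most even ratio, with 0.592 and 0.531 counts per *Spi1* count in M7 and M8 and 0.490 and 0.510 in M9 and M10, a 1.21-fold range over all 4 libraries. *Irf8* was similar, at 0.447, 0.508, 0.374 and 0.414. *Spi1*, *Cebpa* and *Irf8* thus differed 8.24- to 10.02-fold in mean CPM between genotypes, while the ratios of the last 2 to *Spi1* stayed within a 1.36-fold range. *Cebpb* went from 6.48 and 8.83 counts per *Spi1* count to 2.07 and 3.21, and *Maf* from 5.25 and 6.11 to 1.75 and 2.40. *Klf4* went from 3.97 and 4.30 to 0.344 and 0.517, 9.60-fold fewer on average, and *Runx1* from 2.45 and 3.15 to 0.247 and 0.345, 9.47-fold fewer. For *Irf4* and *Pparg* the genotypes overlapped. Relative to *Spi1*, 94.6% of all genes tested were lower in both libraries labelled SYK KO than in both labelled SYK WT, and 1.56% were higher, so a lower ratio was the rule, and 6 of these 8 factors had it. With 2 libraries against 2, an exact two-sided permutation test of such a ratio cannot give a p below 0.333. *Syk* itself had 1.03 and 1.12 counts per *Spi1* count in M7 and M8 and 0.673 and 0.853 in M9 and M10.

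**Figure D2:**
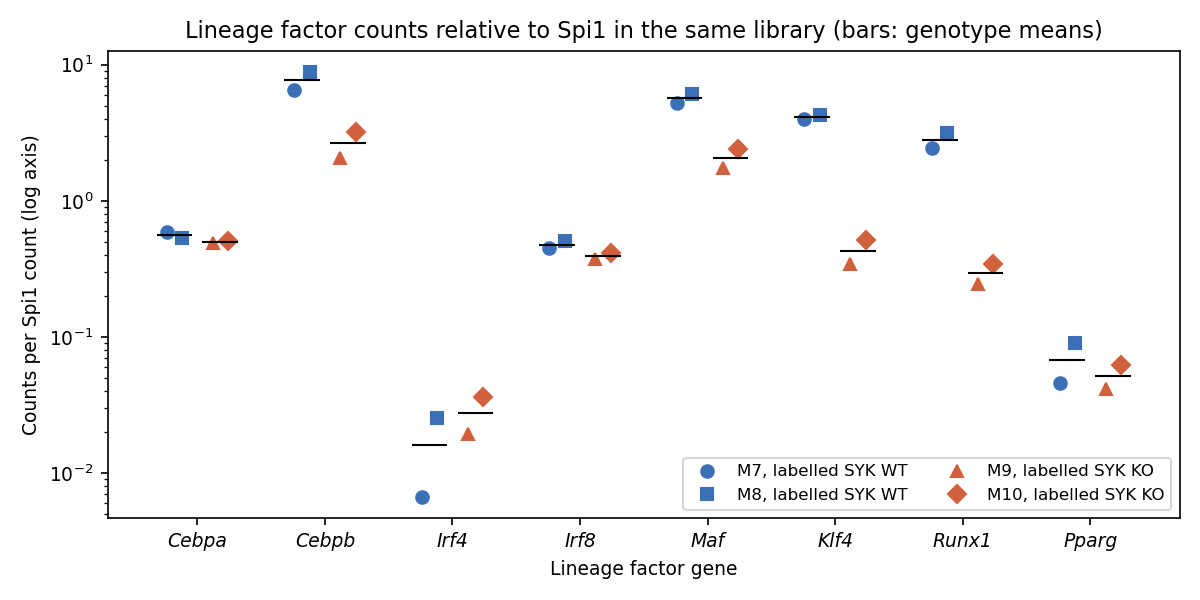
Counts of the other 8 lineage factors per *Spi1* count in the same library (log axis), blue for libraries labelled SYK WT and orange for those labelled SYK KO, with a bar at each genotype mean. *Cebpa* and *Irf8* lie nearly level across the 4 libraries, whereas *Klf4* and *Runx1* drop from between 2.45 and 4.30 to between 0.247 and 0.517.

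How each factor compared with the macrophage markers was read by scaling the libraries to the geometric mean of the 10 markers. Of these, *Csf1r*, *Fcgr1*, *Cd14* and *Mrc1* are also listed as targets of lineage factors, so the scaling is not independent of the factors. Of the 9 factors 0 were then higher, also at an unadjusted p under 0.05, and *Klf4* and *Runx1* were lower, with log2 fold changes of -2.72 (edgeR adjusted p = 4.29e-06) and -2.71 (edgeR adjusted p = 3.54e-06). This scaling moved the median of all genes tested to -2.72 and left 86.5% of them lower and 0.808% higher, so both genes lay at that median. *Spi1*, *Cebpa*, *Irf8* and *Pparg* were at 0.55, 0.38, 0.27 and 0.14, above the median of all genes by about as much as under TMM, and none passed the test (edgeR adjusted p from 0.311 to 0.860). *Irf4* was at 1.33 (edgeR adjusted p = 0.195). *Cebpb* and *Maf* were at -0.9998 and -0.91 without passing the test (edgeR adjusted p = 0.0753 and 0.102). Standard errors were wider under this scaling, at 0.518 for *Spi1* against 0.277 under TMM. Per 100 macrophage marker counts (geometric mean), *Spi1* had 27.4 and 30.9 counts in M7 and M8 and 42.6 and 42.5 in M9 and M10. *Cebpa* went from 16.2 and 16.4 to 20.9 and 21.7, and *Irf8* from 12.3 and 15.7 to 15.9 and 17.6. *Irf4* was also higher, *Pparg* overlapped, and *Cebpb*, *Maf*, *Klf4* and *Runx1* were lower. Scaled instead to 6 pan-leukocyte genes, which moved the median of all genes to -3.47 and left 92.1% of them lower and 0.377% higher, *Cebpb* and *Maf* were lower too (-1.75 and -1.67, edgeR adjusted p = 0.000132 and 0.000164), and 4 of the 9 factors were lower and 0 higher in all.

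**Figure D3:**
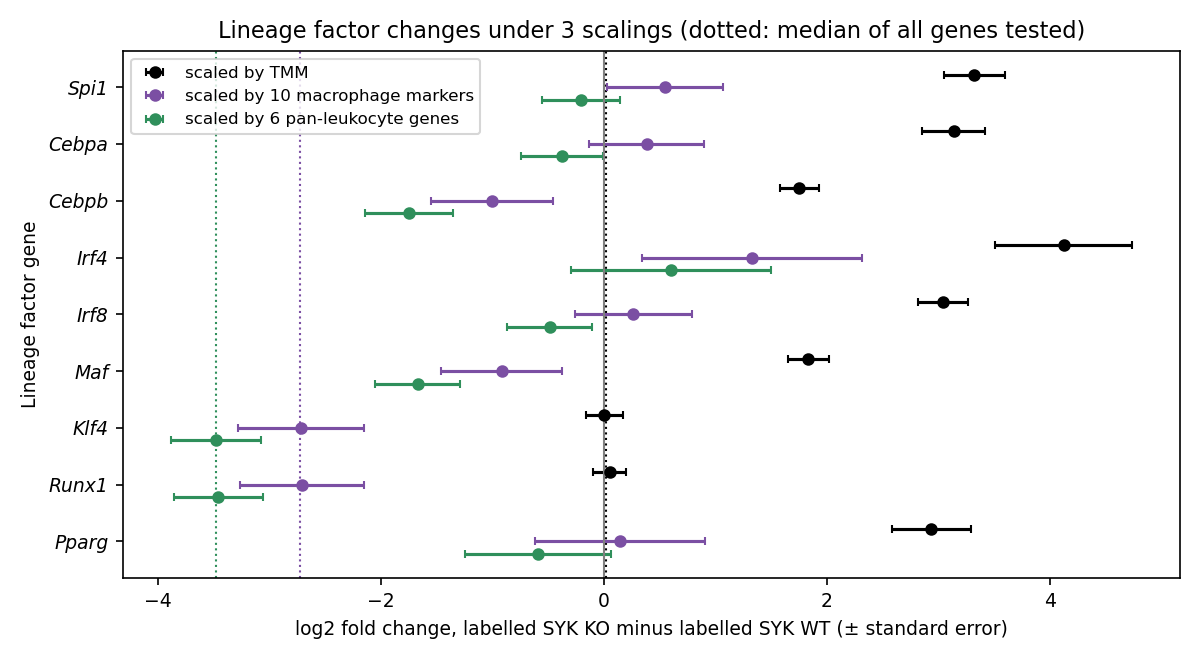
Change of each lineage factor in log2 CPM (horizontal axis, libraries labelled SYK KO minus those labelled SYK WT, with standard errors) with libraries scaled by TMM, by 10 macrophage markers or by 6 pan-leukocyte genes, and dotted lines at the median of all genes tested (0.02, -2.72 and -3.47). *Klf4* and *Runx1* sit on the dotted line under each scaling, and *Spi1*, *Cebpa*, *Irf8* and *Pparg* lie between -0.59 and 0.55 under both marker scalings.

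Levels between genes were compared per kilobase of exon, as TMM-normalized CPM divided by the summed exon length. In M7 and M8 the order began with *Cebpb* (117 and 122 CPM per kilobase), *Klf4* (35.2 and 29.2), *Maf* (17.3 and 15.4) and *Spi1* (10.1 and 7.70). In M9 and M10 it began with *Cebpb* (401 and 402), *Spi1* (108 and 69.8), *Maf* (61.7 and 54.8) and *Cebpa* (54.1 and 36.4), and *Klf4* (32.9 and 31.9) came next. *Pparg* and *Irf4* were the lowest in all 4 libraries. In M7 and M8 *Cebpa* (6.09 and 4.18) and *Runx1* (5.53 and 5.43) did not differ beyond their spread and changed places between the libraries, and in M9 and M10 the ranges of *Cebpa* and *Klf4* lay next to each other without overlapping. The exons of *Runx1* sum to 12025 bases over all annotated transcripts, which lowers its value per kilobase.

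The genes most like each factor over the 4 libraries were sought among the 92 other lineage, family and target genes with counts in every library, by the distance between centred log2 CPM profiles. *Spi1* lay nearest to *Id2*, an inhibitor of basic helix-loop-helix proteins (distance 0.147 on the log2 scale), and then *Btk* (0.163). *Cebpa* lay nearest to *Cybb*, the catalytic subunit of the phagocyte oxidase (0.0810), *Irf8* to *Spic*, the ETS factor of iron-recycling macrophages (0.236), and *Maf* to *Cst3* (0.115), with *Cebpb* next (0.220). *Klf4* lay nearest to *Elf4* (0.118) and *Runx1* to *Bcl6* (0.0606), genes that also did not pass the test. *Irf4* had no close match, its nearest being *Il1b* at 1.28.

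Over the wider families, 57 of 61 other transcription factors were tested, and under TMM scaling 24 were higher (42.1%) and 8 lower (14%), beside 22.7% and 16.7% of all genes, and the median of their log2 fold changes was 0.31. Library size alone gave 14 higher and 13 lower, and omission of M8 gave 14 and 3, of M7 19 and 4, of M9 24 and 11 and of M10 28 and 12. With scaling to macrophage markers, 0 were higher and 44 lower, beside 0.808% and 86.5% of all genes. The ETS genes *Spic* (2.91), *Spib* (2.52), *Fli1* (2.38) and *Ets2* (1.29) rose under TMM scaling, whereas *Ets1*, *Elf1* and *Elf4* did not pass the test (-0.05, 0.06 and 0.03). *Ets2* was lower when scaled to the macrophage markers (-1.53), and *Fli1* when scaled to the pan-leukocyte genes (-1.14). Among 18 other myeloid regulators, 9 of 16 tested rose under TMM scaling, including *Id2* (3.44), *Batf3*, a factor of conventional dendritic cells (2.68), *Stat6*, the transducer of IL-4 signals (2.46), and *Mitf* (1.72), of which *Stat6* and *Mitf* were lower when scaled to the pan-leukocyte genes (-1.07 and -1.84). *Gata2*, a factor of mast cells, progenitors and endothelium, was lower (-1.94). The progenitor factors *Myb* and *Gfi1* had at most 5 counts in any library and were not tested. Of 37 target genes 30 were tested, of which 27 were higher (90.0%) and 0 lower by edgeR under TMM scaling, with a median of 2.98. Scaled to the macrophage markers, 4 were higher and 4 lower, beside 0.808% and 86.5% of all genes. The DESeq2 Wald test, which covered all 37, gave 28 higher, and 0 were lower by either tool, also at an unadjusted p under 0.05. *Csf1r*, *Fcgr1*, *Cd14* and *Mrc1* are in the macrophage marker list too.

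**Figure D4:**
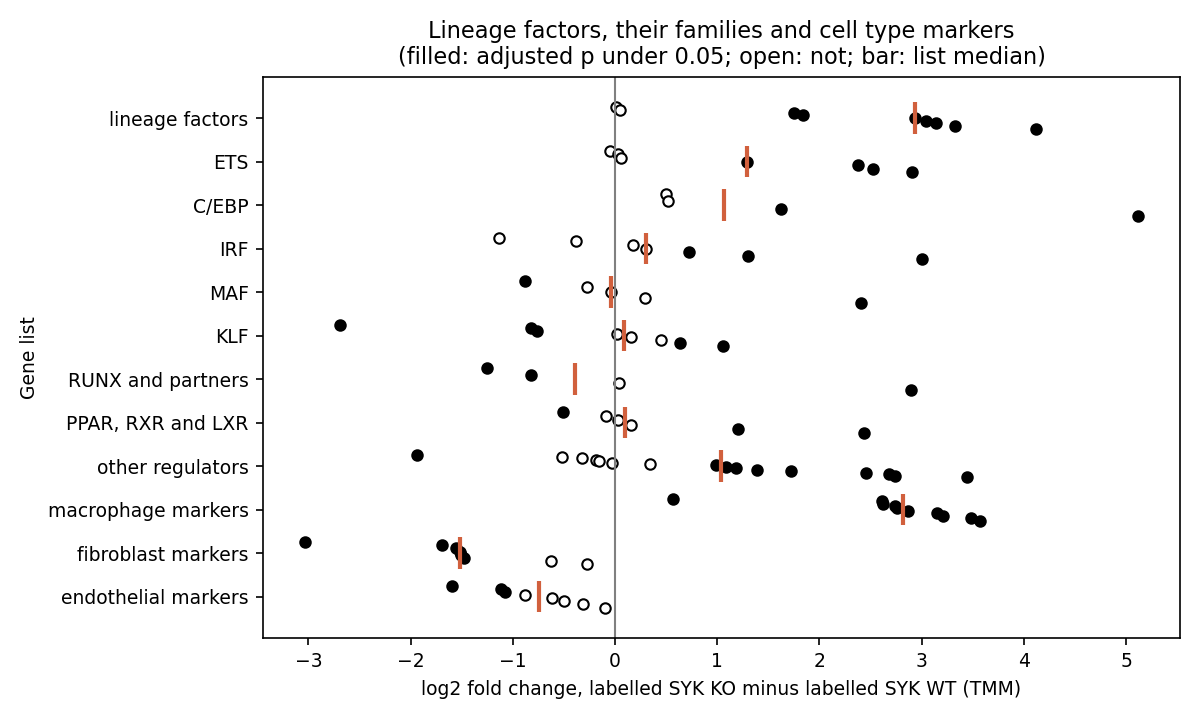
TMM-scaled log2 fold changes (horizontal axis, libraries labelled SYK KO minus those labelled SYK WT) of the tested genes of each list, filled where the edgeR adjusted p was under 0.05, with a bar at each list's median. Of the lineage factors (median 2.94), *Irf4* lies above every macrophage marker (these run from 0.57 to 3.57) and *Klf4* and *Runx1* below them, whereas the KLF, RUNX and MAF lists (medians 0.09, -0.39 and -0.04) reach both directions; scaled to the macrophage markers the median of all genes is at -2.72.

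The 7 calls of a rise did not rest on any single library. In each of the 4 fits that omitted a library, 7 of the 9 factors were higher, beside 12.1% of all genes without M7, 8.58% without M8, 24.8% without M9 and 28.9% without M10, and *Spi1* ran from 2.89 without M9 to 3.62 without M10. In *Spi1*, *Cebpa* and *Irf8* M9 exceeded M10 by 1.55-, 1.49- and 1.399-fold, beside mitochondrial shares of 6.00% in M9 and 15.9% in M10, and the part of RNA quality in this difference was not tested.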

How the data were processed

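Poly(A)-selected RNA of 4 libraries was sequenced as paired reads on a NovaSeq instrument per the labels, whereas the study's methods describe triplicate single-read HiSeq libraries. The authors aligned reads (STAR 2.6.1d, mm10), quantified genes (Salmon 1.4.0; versions per the submitters' processing notes) and deposited unnormalized whole-number counts per Ensembl gene. How estimates became whole numbers and whether strand was used are not given in the sources used here. Symbols, positions and exon lengths came from GENCODE M21 on GRCm38, which named 54495 of 54532 genes.

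Genes passed edgeR's filterByExpr (16451 genes, including all 9 lineage factors), were scaled by TMM (factors 1.22, 1.19, 0.876 and 0.787 for M7 to M10) and were tested with the quasi-likelihood F test of edgeR 4.0.16 (R 4.3.3) without robust estimation, with a Benjamini-Hochberg adjusted p threshold of 0.05, the 4 libraries in 2 genotype groups without covariates. The standard error is the log2 fold change divided by the square root of F. Alternatives were DESeq2 size factors, the Wald test of DESeq2 1.42.0 (the study's tool), library size only, the 2 marker scalings, 2 filters on low counts, removal of mitochondrial and rRNA-like genes, and each library left out. Libraries of a genotype differed by more than sampling noise (chi-square per degree of freedom 55.8 in SYK WT and 185 in SYK KO). The floor of 3 counts equalled 0.109 to 0.163 CPM, for counting error only. Scripts were tested on simulated data.

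The lineage factors and all lists were chosen with earlier results of these data known. Named genes were the lineage factors, *Syk*, *Lyz2*, all family and target genes by list, the 4 largest called changes of each pool, and the 2 genes nearest to each factor. The paired ratios of 2 named genes were chosen after their values were seen. Some genes of the lists are counted but not reported here by name.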

Additional observations from a re-analysis of the deposited data

How the results depend on the processing

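Outside the 2 marker scalings, all 69 alternative values of the 7 lineage factors that rose kept their direction and their side of the threshold, and *Irf4* was not tested with at least 10 counts required in every library. Scaled to the 10 macrophage markers, 0 lineage factors were higher and 2 lower, 0 family factors higher and 44 lower, 4 targets higher and 4 lower, and 133 of all genes higher and 14228 lower. The lineage factor median was then 0.14, with *Cebpb* at -0.9998, *Maf* at -0.91, *Klf4* at -2.72 and *Runx1* at -2.71. Scaled to the 6 pan-leukocyte genes, 0 lineage factors were higher and 4 lower, 0 family factors higher and 49 lower, 2 targets higher and 13 lower, and 62 of all genes higher and 15145 lower. The median was then -0.59, with *Spi1* at -0.20, *Cebpa* at -0.37, *Cebpb* at -1.75, *Irf8* at -0.48, *Maf* at -1.67, *Klf4* at -3.48, *Runx1* at -3.46 and *Pparg* at -0.59. The 2 marker scalings moved the median of all genes to -2.72 and -3.47. The standard error of *Spi1* was 0.518 and 0.351 under them, against 0.277 under TMM. Why the calls changed was not tested.

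With library size only, which moved the median of all genes to -0.52, 14 family factors were higher and 13 lower, 1677 of all genes higher and 5411 lower, the lineage factor median was 2.41, and *Klf4* and *Runx1* were at -0.53 and -0.48. Without *Irf4*, which the stricter filter removes, the median was 2.32, and *Klf4* and *Runx1* were at -0.062 and -0.016. *Klf4* was at -0.034 with DESeq2 size factors, -0.0099 with all genes of at least 1 count, -0.041 by the DESeq2 Wald test and -0.029 without mitochondrial and rRNA-like genes. With each library left out in turn, family factors ran from 14 to 28 higher and from 3 to 12 lower, all genes from 1478 to 5010 higher and from 807 to 4745 lower, the lineage factor median from 2.67 to 2.97, *Klf4* from -0.13 to 0.15 and *Runx1* from -0.11 to 0.14. Without M8, 14 family factors were higher and 3 lower, and 1478 of all genes higher and 807 lower; without M7, 4 family factors and 1226 of all genes were lower and 2094 higher. Without M9 4498 of all genes were lower, and without M10 4745. Why these counts moved was not tested. A lone library left in a genotype was assumed to vary like the others. No paired analysis was possible because the labels give each library its own number and no pairing. Depth limited *Irf4* most, with 5 counts in M7.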
